A study of Mus musculus with 9 samples.

Results

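The cytosolic ribosomal protein genes were described across 9 Affymetrix arrays of mouse haematopoietic progenitors. Members were the genes whose symbol was Rpl or Rps followed by digits and at most one more letter, together with Rplp0, Rplp1, Rplp2 and Rpsa, where a probe set named that gene and no other. The rule found 46 of the 18193 genes with such a probe set, 24 of the large subunit and 22 of the small subunit. Rplp1 had no single-gene probe set and was not analysed here. Each gene was read from its brightest probe set by the mean over the 9 arrays, and 42 members lay above the filter on low values.

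RNA came from LSK cells (Lin-Sca1+cKit+), the marrow fraction that contains the haematopoietic stem cells and multipotent progenitors. There were 3 groups of 3 arrays. The GFP-positive and GFP-negative groups were the transgene-positive and transgene-negative LSK cells of mice transplanted with dnMPL-transduced cells, and the control group was LSK cells of mice transplanted with wild-type cells. All groups were on the C57BL/6 background, all recipients had been lethally irradiated (10 Gy), and cells were sorted 8 weeks after transplantation. Donor marrow had been depleted of lineage-positive cells, stimulated in culture with cytokines including thrombopoietin, and transduced with a retroviral vector before injection. Each array held RNA of 2 to 5 pooled mice. The labels do not state the vector of the control cells, the age of the mice, what share of a sample came from surviving host cells, or whether GFP-positive and GFP-negative samples of one number came from the same mice. Each p-value below therefore measures the spread between 3 pooled samples a group.

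A ribosome is built from a small subunit, which reads the mRNA, and a large subunit, which joins amino acids and sends the chain out through a tunnel. Its proteins are needed in matched amounts, and their mRNAs are among the most abundant in most cells. Most of these mRNAs begin with a C followed by a run of pyrimidines at the very 5′ end, the TOP (terminal oligopyrimidine) motif, through which mTOR signalling and the RNA-binding protein LARP1 control their translation. Translation can thereby be regulated without a change in mRNA amount, and arrays measure mRNA amount alone. Blood-forming cells are known to be sensitive to the dose of these proteins: in humans, loss of 1 copy of RPS19 or of several other members causes Diamond-Blackfan anaemia, and mouse haematopoietic stem cells make less protein per hour than their progeny.

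The sequences around the annotated transcription start were read first, since the TOP motif lies there. Promoter sequences of 40 of the 46 members were found in RefSeq (build GRCm38.p6), with 48 annotated starts on 15 chromosomes. The windows below hold 30 bases, 15 before the start and 15 from it onward, on the strand of the gene, and are shown for the members with the most variable array values, for members whose groups did not overlap in a comparison, for Rps6 and Rps27, which are among the 8 members with the smallest p in a comparison, and for Rpl27a, which has one of the longest tracts. Capitals mark a pyrimidine tract, defined as a C followed by at least 6 further C or T. The motif definitions were chosen after the sequences had been seen.
Rpl14 (chr9:120571502-120571531, + strand): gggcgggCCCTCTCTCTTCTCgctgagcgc
Rps27l (chr9:66946071-66946100, + strand): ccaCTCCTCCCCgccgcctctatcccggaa
Rps9 (chr7:3704026-3704055, + strand): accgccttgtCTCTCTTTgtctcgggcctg
Rpl4 (chr9:64173372-64173401, + strand): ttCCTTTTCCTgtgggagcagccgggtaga
Rps27 (chr3:90213634-90213663, - strand): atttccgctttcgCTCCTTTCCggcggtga
Rps6 (chr4:86857353-86857382, - strand): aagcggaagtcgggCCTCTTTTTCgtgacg
Rpl27a (chr7:109519180-109519209, + strand): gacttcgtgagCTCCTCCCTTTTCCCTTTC
Rps25 (chr9:44407699-44407728, + strand): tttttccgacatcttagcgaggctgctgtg
Rpl12 (chr2:32961697-32961726, + strand): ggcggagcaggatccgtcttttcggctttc
Rps2 (chr17:24720048-24720077, + strand): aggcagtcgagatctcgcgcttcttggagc

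A tract on the sense strand was found within the window of 21 of the 40 members (52.5%), against 4421 of 27025 genes (16.4%) with a promoter in the table. The letters CTTCCG, which occur in binding sites of ETS-family transcription factors, were found on either strand of the 300-base promoter (250 bases before the start and 50 after it) in 29 of 40 members (72.5%), against 18.8% of all genes. TATAAA was found in 5 of 40 members (12.5%), against 15.7% of all genes. In the window of Rps18 the tract began at the base after CTTCCG. The windows of Rps25, Rpl12 and Rps2 hold no tract of that definition. Annotated starts can lie some bases away from the start in use, so a missing tract says only that these letters are not in this window. Equally, a tract found in the window need not begin the mRNA. The 9-base tract of Rpl4 began 13 bases before the annotated start, and that of Rpl39 began 6 bases after it. Rps27l has another annotated start whose window holds no tract.

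Levels are the deposited log2 RMA values, on which a difference of 1 is a doubling. The arrays correlated with each other at 0.887 to 0.971 over all probe sets. GFP-positive 2 and control 3 stood apart: their array weights in limma were 0.369 and 0.364, against 0.809 to 2.38 on the other arrays. Their Gapdh control probe sets had 3′ signals 3.22 and 3.87 above the 5′ signals, against 2.47 to 2.89 elsewhere, a larger gap being known from more degraded or shorter-copied RNA. The LSK label was checked on 5 of 7 markers with a single-gene probe set. Kit lay between 6.38 and 8.73 and Flt3 between 8.67 and 9.28, Ly6a (Sca1) was not analysed here, and Procr was 5.43 to 7.05 on the dnMPL arrays, against 7.58 to 8.69 on the control arrays. Some marker lists of other cells moved with the groups, and not all in 1 direction. The mean level of 10 granulocyte markers was 10.7 to 11.7 in GFP-positive, 9.95 to 11.3 in GFP-negative and 7.18 to 9.59 in control cells. The mean of 8 of 10 measured erythroid markers was 6.69 to 7.19 in GFP-positive, 6.47 to 6.89 in GFP-negative and 5.09 to 5.25 in control cells. Monocyte markers (5 genes) averaged 4.99 to 7.17 in GFP-positive, 5.94 to 6.50 in GFP-negative and 4.28 to 4.79 in control cells. Of 6 markers of cycling cells, 5 were measured. They averaged 8.95 to 9.19, 8.77 to 8.91 and 7.77 to 8.78 in the same order, with control 3 the lowest. By their means 4 of the 5 were higher in each dnMPL group than in control cells. The other, Mki67 (mean 12.25), differed by -0.01 in GFP-positive and -0.19 in GFP-negative cells. T and NK cell markers averaged 4.07 to 4.71 in GFP-positive, 4.02 to 4.19 in GFP-negative and 3.72 to 4.03 in control cells. Of these 5 genes, 3 were below the filter. Megakaryocyte markers (5 genes) averaged 4.931 to 5.476 in GFP-positive, 5.462 to 6.151 in GFP-negative and 5.479 to 6.206 in control cells. For 6 of 7 B cell markers the means were 6.51 to 7.05, 5.52 to 6.42 and 4.40 to 6.57, so both dnMPL groups overlapped control. What part these cells, or cycling, had in the values below was not tested, and in sorted bulk RNA fewer cells of a type cannot be told apart from less RNA per cell.

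Ribosomal protein genes gave some of the brightest signals on the arrays, and the mean of 31 of the 46 members exceeded the 99th percentile of the probe sets. Brightness also depends on the probes, so it does not rank the transcripts of different genes. Rpl13a, known in humans from a translational silencing complex as well as from the large subunit, had 13.66, 13.72 and 13.90 on the GFP-positive arrays, 13.83, 13.84 and 13.85 on the GFP-negative arrays, and 13.89, 13.93 and 13.82 on the control arrays. Rps29, a small-subunit protein and Diamond-Blackfan anaemia gene, had 13.55, 13.55 and 13.63 in GFP-positive, 13.52, 13.57 and 13.62 in GFP-negative, and 13.54, 13.55 and 13.45 in control cells. The 9 values of Rps29 had the smallest within-group SD of the tested members, 0.050. Rpsa, the laminin receptor precursor as well as a small-subunit protein, had 13.41, 13.52 and 13.54 in GFP-positive, 13.62, 13.63 and 13.53 in GFP-negative, and 13.58, 13.51 and 13.44 in control cells. In the brightest probe set of each of these genes the 3 groups overlapped. The dimmer Rps29 probe sets (means 12.81 and 12.68) put GFP-negative above control cells without overlap, by 0.25 and 0.38. The brightest members also included Rps28 (mean 13.35), which lies near the mRNA exit of the small subunit, and Rpl38 (mean 13.18), known in mice for its part in skeletal patterning.

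4 members lay below the filter of 4.03 and were not tested. Rps16, of the small subunit, was read at 1.73 to 2.36 in GFP-positive, 1.56 to 1.83 in GFP-negative and 1.80 to 2.50 in control cells. Rpl37 was read at 3.03 to 3.45 in GFP-positive, 3.14 to 3.51 in GFP-negative and 3.14 to 3.44 in control cells. Both are core ribosomal proteins, so these values describe their single-gene probe sets and not the genes' use. A further 110 probe sets were annotated to several genes including a ribosomal protein gene, and they were not given to any one gene. The other 2 are tissue-restricted paralogues: Rpl3l, known from heart and skeletal muscle, had means of 3.87, 3.70 and 3.67 in GFP-positive, GFP-negative and control cells, and Rpl39l, known from testis, had 2.40, 2.48 and 2.46.

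**Figure D1:**
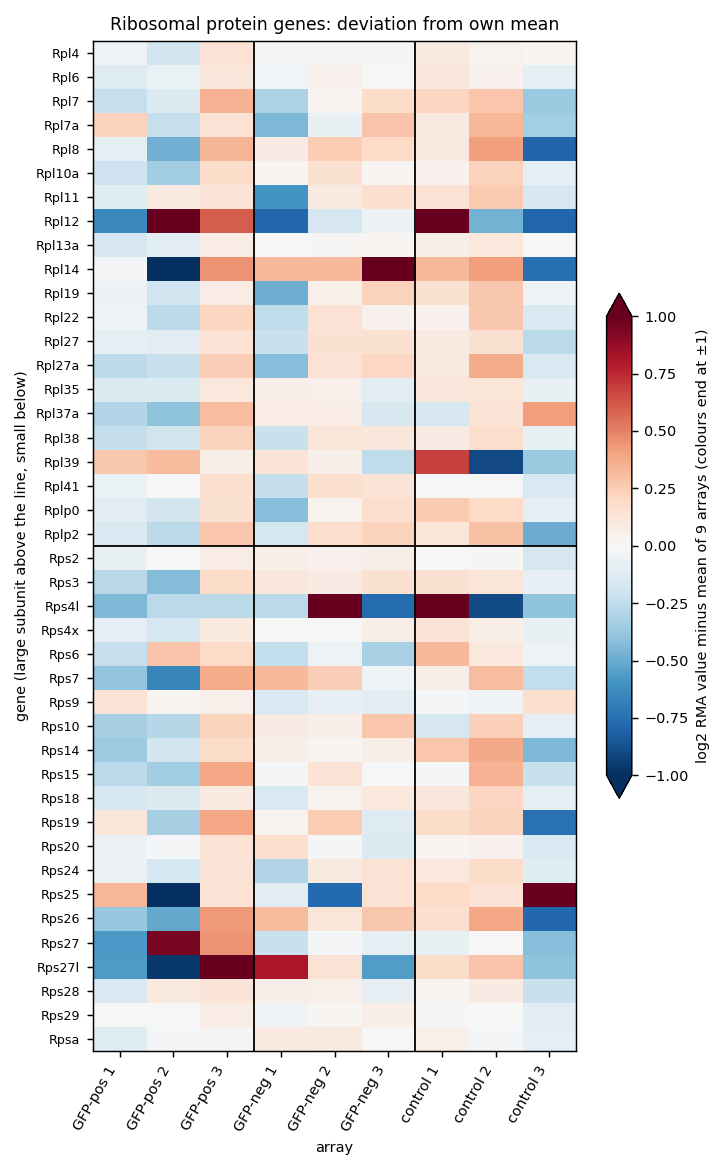
Deviation of each of the 42 tested ribosomal protein genes from its own mean over 9 arrays (log2 RMA value, colour, ends at ±1), with genes down the page and arrays across, GFP-positive left of GFP-negative and control. Whole columns share a colour: 41 genes lay above their mean on GFP-positive 3 and 4 on control 3, a pattern that became 20 and 25 genes when each array was centred on its median over the tested genes.

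Most members moved together from array to array on the deposited scale. On the 3 GFP-positive arrays, 5, 9 and 41 of the 42 members lay above their own mean over the 9 arrays. On the GFP-negative arrays the counts were 18, 33 and 26, and on the control arrays 35, 36 and 4. The 1 gene not above its mean on GFP-positive 3 was Rps4l. The median deviation of the members was -0.13, -0.18 and 0.16 on the GFP-positive arrays, -0.02, 0.06 and 0.06 on the GFP-negative arrays, and 0.10, 0.16 and -0.15 on the control arrays. Averaged by group these medians were -0.05 ± 0.18 in GFP-positive, 0.03 ± 0.05 in GFP-negative and 0.04 ± 0.17 in control cells (SD, n = 3 each). The groups overlapped, and the distance between their averages was smaller than the pooled SD within groups of 0.15.

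Both subunits shared the array pattern. Of 21 tested large-subunit genes including the stalk proteins, 2, 4 and 21 lay above their mean on the GFP-positive arrays, 7, 18 and 15 on the GFP-negative arrays, and 20, 19 and 2 on the control arrays. Of 21 small-subunit genes the counts were 3, 5 and 20 in GFP-positive, 11, 15 and 11 in GFP-negative, and 15, 17 and 2 in control cells. The 107 probe sets annotated to several genes with a ribosomal protein gene among them, added after the data were seen, had 20, 17 and 97 above their mean in GFP-positive, 38, 82 and 72 in GFP-negative, and 74, 102 and 20 in control cells. Such probe sets can share target sequence with the members and are no independent count.

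The pattern changed with the scaling of the arrays. The median over all tested genes was 6.24, 6.13 and 6.46 on the GFP-positive arrays, 6.28, 6.34 and 6.30 on the GFP-negative arrays, and 6.33, 6.41 and 6.11 on the control arrays, so that it was lowest on control 3 and highest on GFP-positive 3. The SD over all probe sets was likewise highest on GFP-positive 3 (2.425) and lowest on control 3 (2.228). Their upper quartile was highest on GFP-positive 3 (6.51), and lower on control 3 (6.25) and GFP-positive 2 (6.24) than elsewhere. The median over all probe sets did not follow this order: it was 4.54 on GFP-positive 3 and 4.64, the highest, on control 3. The share of all tested genes above their own mean was 56.1% on GFP-positive 3, 51.3% on GFP-positive 2 and 49.7% on control 3. Each array was then centred on its median over the tested genes, and the members above their own mean were counted. The counts were 7, 18 and 20 in GFP-positive, 20, 22 and 25 in GFP-negative, and 31, 25 and 25 in control cells. After a further quantile normalization they were 7, 12 and 36 in GFP-positive, 21, 31 and 25 in GFP-negative, and 31, 30 and 14 in control cells. GFP-positive 1 kept a low count (5, 7 and 7) and control 1 a high one (35, 31 and 31) on all 3 scales, whereas GFP-positive 3 and control 3 changed side of 21 with centring. Of 216 other genes with a mean above 11, 57.4%, 46.8% and 63.4% lay above their own mean in GFP-positive, 46.8%, 57.4% and 55.6% in GFP-negative, and 63.4%, 57.4% and 42.1% in control cells. Of the 3 arrays with few members above their mean, control 3 (4 members) and GFP-positive 2 (9 members) had the lowest array weights, 0.364 and 0.369, and the widest Gapdh gaps, 3.87 and 3.22. GFP-positive 1 (5 members) had the highest weight, 2.38, and a gap of 2.80. The part of RNA quality in these counts was not tested.

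**Figure D2:**
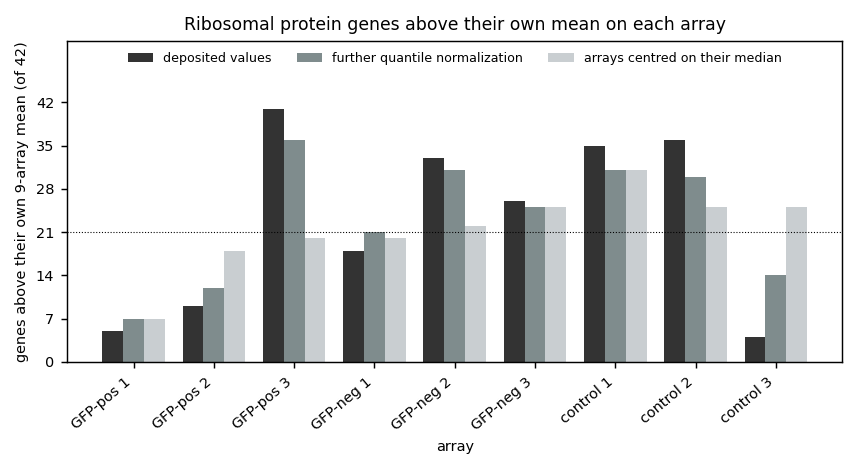
Number of the 42 tested ribosomal protein genes above their own 9-array mean (y axis, starting at 0) on each array, for the deposited values, after further quantile normalization and after centring each array on its median over tested genes; the dotted line marks 21 genes. The deposited bars run from 4 on control 3 to 41 on GFP-positive 3, and the centred bars put these 2 arrays at 25 and 20.

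Most members varied little between arrays of a group, and a handful varied much more. The median SD within groups was 0.23 over the 42 tested members and 0.20 over the 33 members with a mean above 11, against 0.24 over 216 other genes with a mean above 11 and 0.49 over all 12400 genes tested. The 9 tested members at or below 11 had a median SD of 0.77. The 5 members with the largest SD were Rps4l (1.09), Rpl14 (1.00), Rps25 (0.86), Rpl12 (0.83) and Rps27l (0.77), and all were among these 9.

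**Figure D3:**
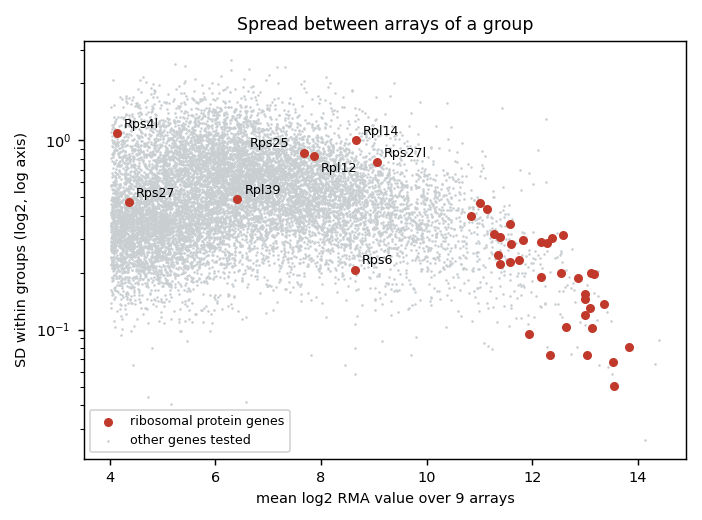
SD within groups (y axis, log scale, in log2 units) against the mean log2 RMA value over 9 arrays (x axis) for the 12400 genes tested, with the 42 ribosomal protein genes in red. Most members sit at the bright end with SDs down to 0.050, and the dimmer Rps4l, Rpl14, Rps25, Rpl12 and Rps27l lie between 0.77 and 1.09.

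The first comparison asked whether ribosomal protein mRNAs differed between the dnMPL GFP-positive cells and the control cells. Of the 42 members, 12 were higher and 30 lower in GFP-positive cells by their means, whereas 47.2% of all tested genes were higher and 52.8% lower. The median log2 difference was -0.08 over the members (range -1.07 to 0.47), against -0.03 over all genes. None of the members passed the test (limma, Benjamini-Hochberg adjusted p under 0.05, smallest adjusted p = 0.823), and neither did any of the 12400 genes (0%, smallest adjusted p = 0.228). At an unadjusted p under 0.05 there were 805 genes (6.49%) and 0 members. The groups did not overlap in 1068 genes (8.61%) and in 0 members. The 95% interval of a member's difference reached a median of 0.60 to either side, and it lay within -1 to 1 for 34 of 42 members. The count of higher members ranged from 6 without control 3 to 21 without GFP-positive 2, and it was 19 without control 1 and 20 without GFP-positive 1.

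The second comparison set the GFP-negative cells against the control cells. By their means, 20 members were higher and 22 lower in GFP-negative cells, whereas 46.5% of all tested genes were higher and 53.5% lower. The median difference was -0.02 over the members (range -0.90 to 0.64), against -0.04 over all genes. None of the members passed the test (smallest adjusted p = 0.920 in limma), nor did any gene (0%, smallest adjusted p = 0.327). At an unadjusted p under 0.05 there were 691 genes (5.57%) and 0 members. The groups did not overlap in 3 of 42 members, no larger a share than the 1415 of all genes (11.4%). Without control 3 only 8 members were higher in GFP-negative cells. This comparison and the first share their control arrays.

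The third comparison, within the dnMPL mice, set GFP-positive against GFP-negative cells. By their means, 15 members were higher and 27 lower in GFP-positive cells, whereas 51.8% of all tested genes were higher and 48.2% lower. The median difference was -0.06 over the members (range -1.28 to 0.74), against 0.01 over all genes. None of the members passed the test, nor did any gene (0%), and the smallest adjusted p of either was 0.9998 in limma. At an unadjusted p under 0.05 there were 316 genes (2.55%) and 0 members, and the groups did not overlap in 793 genes (6.4%) and in 1 member. The count of higher members was 23 without GFP-positive 2, 7 without GFP-positive 3 and 8 without GFP-negative 1.

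**Figure D4:**
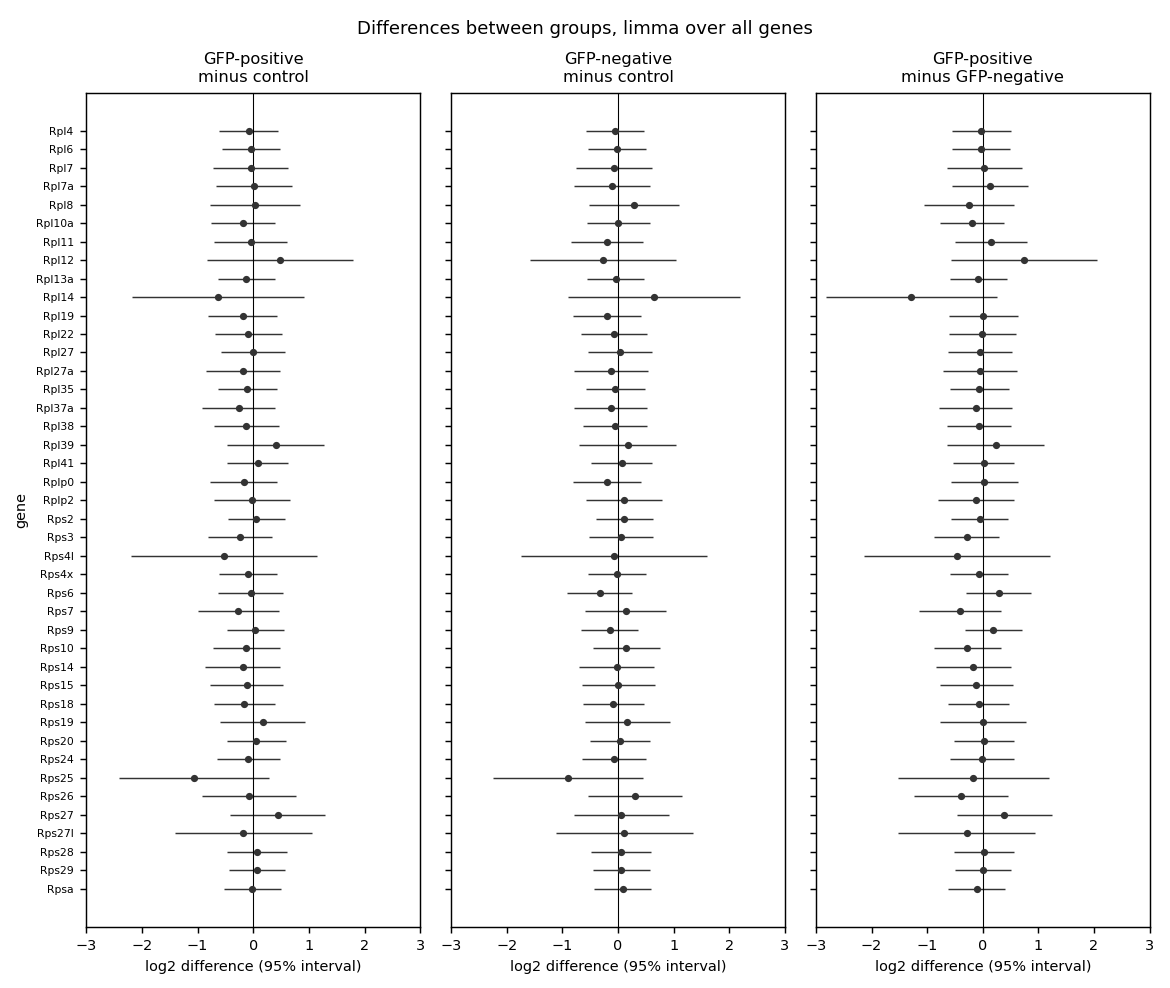
Log2 difference between group means (points) with its 95% interval from limma (lines) for the 42 tested ribosomal protein genes, in GFP-positive minus control, GFP-negative minus control and GFP-positive minus GFP-negative cells. Every interval includes 0, and the widest belong to Rpl12, Rpl14, Rps4l, Rps25 and Rps27l.

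Large-subunit members are described first. Of 19 tested genes named Rpl, without the stalk proteins named Rplp, 5 were higher and 14 lower in GFP-positive than in control cells, 6 higher and 13 lower in GFP-negative than in control cells, and 7 higher and 12 lower in GFP-positive than in GFP-negative cells. Their median differences were -0.08, -0.06 and -0.03 in that order of comparisons, and none passed the test. Leaving out 1 array at a time, the count of higher genes in GFP-positive against control cells ran from 3 (without control 3 or GFP-positive 3) to 10 (without GFP-positive 2). In GFP-negative against control cells it ran from 3 without GFP-negative 2 to 14 without GFP-negative 1, and in GFP-positive against GFP-negative cells from 2 without GFP-negative 1 to 12 without GFP-positive 2. Rpl14, a large-subunit protein of the solvent side, had the widest range. Its values were 8.65, 6.30 and 9.11 in GFP-positive, 8.99, 8.99 and 9.94 in GFP-negative, and 8.99, 9.09 and 7.91 in control cells. GFP-positive 2 and control 3 were the lowest arrays, and GFP-positive and GFP-negative cells overlapped only through GFP-positive 3. The difference of GFP-positive minus GFP-negative cells was -1.28 (95% interval -2.83 to 0.26, adjusted p = 0.9998), the largest in size of any member in any comparison. It was -0.42 without GFP-positive 2, and against control cells the difference of -0.64 in GFP-positive cells became 0.22 without that array.

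The stalk of the large subunit recruits elongation factors, and Rplp0 and Rpl12 form its base while Rplp2 is one of its acidic arms. Rpl12 had 7.22, 9.12 and 8.48 in GFP-positive, 7.09, 7.70 and 7.81 in GFP-negative, and 8.93, 7.39 and 7.08 in control cells. The high arrays were GFP-positive 2, control 1 and GFP-positive 3, and all 3 groups overlapped. The difference was 0.74 (interval -0.57 to 2.05) for GFP-positive minus GFP-negative and 0.47 for GFP-positive minus control cells, and the second became -0.31 without both GFP-positive 2 and control 3. Rplp0 had 11.64, 11.57 and 11.91 in GFP-positive, 11.33, 11.79 and 11.92 in GFP-negative, and 12.02, 11.95 and 11.66 in control cells. It differed by -0.17 in GFP-positive and -0.20 in GFP-negative cells from control cells, with an SE of 0.27. Rplp2 had 12.43, 12.32 and 12.86 in GFP-positive, 12.41, 12.76 and 12.81 in GFP-negative, and 12.71, 12.88 and 12.09 in control cells. In neither gene was a group apart from another.

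Proteins around the exit of the peptide tunnel receive the growing chain and its processing factors. 4 of the 8 listed, Rpl19, Rpl22, Rpl35 and Rpl39, were tested, and 1 of 4 was higher by its mean in GFP-positive and in GFP-negative than in control cells. Rpl39, a small protein lining the exit, had 6.69, 6.73 and 6.48 in GFP-positive, 6.56, 6.48 and 6.16 in GFP-negative, and 7.11, 5.52 and 6.05 in control cells. Its control arrays spread over 1.59, from the highest to the lowest of all 9 arrays, and its GFP-positive minus control difference of 0.41 (interval -0.46 to 1.28) ranged from 0.05 without control 2 to 0.85 without control 1. Rpl19 had 11.30, 11.16 and 11.43 in GFP-positive, 10.87, 11.41 and 11.59 in GFP-negative, and 11.51, 11.63 and 11.32 in control cells. The lowest array was GFP-negative 1, and the group means differed by -0.19 in GFP-positive and -0.20 in GFP-negative cells from control cells.

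Rpl11 belongs to the 5S ribonucleoprotein particle, which binds MDM2 and stabilises p53 when ribosome assembly fails, and Rps7 is a small-subunit protein that also binds MDM2. Rpl5 and Rpl23, the other listed genes, had no single-gene probe set among the members. Rpl11 averaged 11.63 ± 0.13 in GFP-positive, 11.48 ± 0.42 in GFP-negative and 11.68 ± 0.22 in control cells (SD, n = 3 each), and the groups overlapped with GFP-negative 1 the lowest array. Rps7 had 11.18, 10.92 and 11.94 in GFP-positive, 11.90, 11.82 and 11.54 in GFP-negative, and 11.64, 11.88 and 11.33 in control cells. Its GFP-positive group held both the highest array and the lowest ones. The Rps7 difference of GFP-positive minus GFP-negative cells was -0.41 (interval -1.14 to 0.32), and it was -0.20 without GFP-positive 2 and -0.14 when the brightest probe set of the gene was replaced by its dimmer one.

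Among the other large-subunit members taken by their small p, Rpl8, which lies near the peptidyl transferase centre, had 11.06, 10.67 and 11.49 in GFP-positive, 11.23, 11.40 and 11.35 in GFP-negative, and 11.24, 11.56 and 10.35 in control cells. Control 3 was the lowest array, and the GFP-negative minus control difference of 0.28 became -0.07 without it. Rpl37a, a zinc-binding large-subunit protein, had 11.99, 11.88 and 12.59 in GFP-positive, 12.36, 12.36 and 12.12 in GFP-negative, and 12.12, 12.42 and 12.70 in control cells. Here control 3 was the highest array, and the GFP-positive minus control difference of -0.26 (interval -0.91 to 0.40) became 0.02 without control 3 and GFP-positive 2. This probe set of Rpl37a ran opposite to most members on control 3. A dimmer Rpl37a probe set (mean 12.07) had its lowest value there, 11.76.

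Small-subunit members are described next. Of 21 tested, 7 were higher and 14 lower in GFP-positive than in control cells, 13 higher and 8 lower in GFP-negative than in control cells, and 7 higher and 14 lower in GFP-positive than in GFP-negative cells, with median differences of -0.09, 0.05 and -0.07 in that order. None passed the test. Without control 3, 4 of 21 were higher in GFP-negative and 3 in GFP-positive than in control cells, and the second count was 11 without control 1 or GFP-positive 1. Between GFP-positive and GFP-negative cells the count was 3 without GFP-positive 3. Rps25, a protein of the subunit's head known in yeast and human cells for its part in initiation at some viral internal entry sites, had the smallest p in both comparisons with control. It had 8.01, 5.97 and 7.83 in GFP-positive, 7.58, 6.91 and 7.83 in GFP-negative, and 7.88, 7.83 and 9.31 in control cells. Control 3 was the highest and GFP-positive 2 the lowest array, and the other arrays lay between 6.91 and 8.01. The difference from control cells was -1.07 (interval -2.42 to 0.28, adjusted p = 0.823) in GFP-positive and -0.90 (interval -2.25 to 0.45, adjusted p = 0.920) in GFP-negative cells. Without GFP-positive 2 and control 3, the first became 0.07 and the second -0.41.

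**Figure D5:**
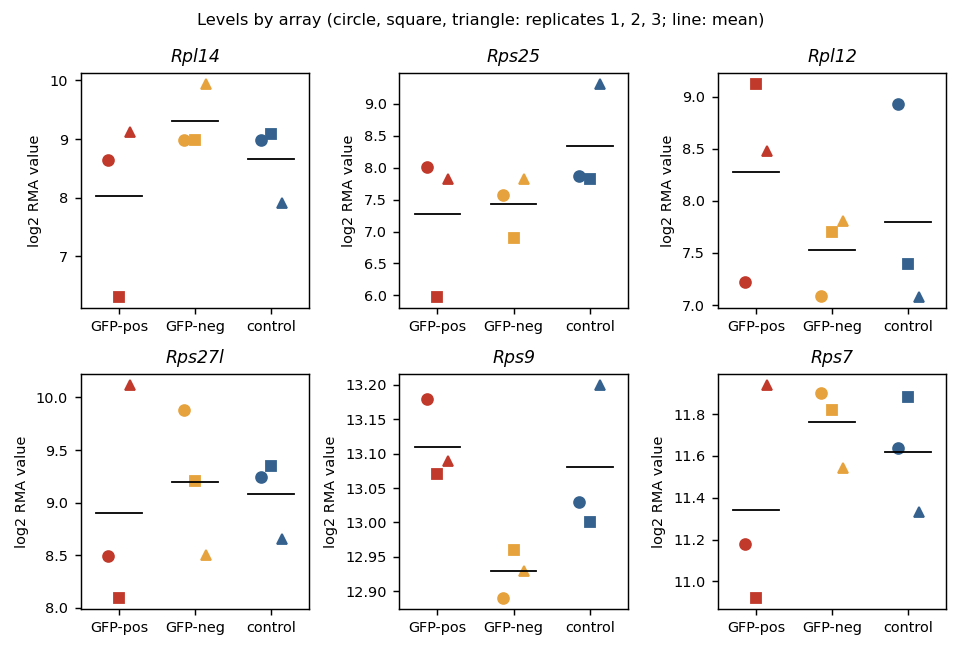
Log2 RMA values of Rpl14, Rps25, Rpl12, Rps27l, Rps9 and Rps7 on each array, with GFP-positive left of GFP-negative and control; circles, squares and triangles are replicates 1, 2 and 3, lines are group means, and each panel has its own y axis, which does not start at 0. GFP-positive 2 lies lowest for Rpl14 (6.30) and Rps25 (5.97) and highest for Rpl12 (9.12), and the Rps9 panel spans 12.89 to 13.20 only.

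Proteins at the mRNA entry, the exit and the decoding centre hold the message in place. Of 6 tested among 8 listed, 2 were higher in GFP-positive than in control cells, 5 in GFP-negative than in control cells and 1 in GFP-positive than in GFP-negative cells, by their means. Without control 3 these counts were 0, 1 and 1 of 6, and without GFP-positive 2 or control 2 the first was 4. Rps3, a protein of the mRNA entry, had 12.84, 12.69 and 13.30 in GFP-positive, 13.23, 13.20 and 13.27 in GFP-negative, and 13.27, 13.24 and 13.04 in control cells. GFP-positive 1 and 2 were the lowest arrays and GFP-positive 3 the highest, and the difference from control cells was -0.24 (interval -0.82 to 0.34). A dimmer Rps3 probe set above the filter gave 0.57 for the same difference. Rps26, which contacts mRNA near the exit, had 10.62, 10.49 and 11.43 in GFP-positive, 11.32, 11.12 and 11.27 in GFP-negative, and 11.16, 11.39 and 10.22 in control cells. The lowest array was control 3, and the GFP-negative minus control difference of 0.31 became -0.04 without it. Rps14 had means of 12.25 in GFP-positive, 12.42 in GFP-negative and 12.44 in control cells, and Rps15 of 12.09, 12.21 and 12.21 in the same order.

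Rps2, Rpl4 and Rps9 were the members in which groups did not overlap in the brightest probe set. They are named after their values were seen. Rps2, next to the mRNA entry, had 12.25, 12.33 and 12.40 in GFP-positive, 12.39, 12.37 and 12.39 in GFP-negative, and 12.32, 12.34 and 12.16 in control cells, a GFP-negative minus control difference of 0.11 (adjusted p = 0.971). It was 0.05 without control 3. Rpl4, whose loop lines the peptide tunnel, had 12.59, 12.44 and 12.79 in GFP-positive, 12.63 on each of the GFP-negative arrays, and 12.73, 12.68 and 12.66 in control cells, a GFP-negative minus control difference of -0.06. RMA can give arrays near-identical values, and the SD of the GFP-negative group was 0.0022. Rps9, a protein of early small-subunit assembly, had 13.18, 13.07 and 13.09 in GFP-positive, and 12.89, 12.96 and 12.93 in GFP-negative cells, and it averaged 13.08 ± 0.11 in control cells (SD, n = 3), with control 3 the highest. GFP-negative cells lay below both other groups, by -0.15 against control cells, and the GFP-positive minus GFP-negative difference was 0.19 (interval -0.33 to 0.70). Of the 3 Rps9 probe sets, the middle one (mean 11.29) gave -0.15 for GFP-negative minus control and 0.03 for GFP-positive minus GFP-negative cells. The dimmest (mean 5.99) gave 0.31 and 0.38 in the same order.

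Rps6 is the small-subunit protein phosphorylated by the S6 kinases downstream of mTOR. It had 8.41, 8.93 and 8.83 in GFP-positive, 8.40, 8.60 and 8.32 in GFP-negative, and 8.96, 8.75 and 8.60 in control cells, and its window above holds a tract that begins 1 base before the annotated start. The GFP-negative arrays held the lowest values and met the control group at 8.60. The GFP-negative minus control difference was -0.33 (interval -0.92 to 0.26, adjusted p = 0.926), and the GFP-positive minus GFP-negative difference was 0.28.

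The Diamond-Blackfan anaemia list holds genes of both subunits in which human mutations cause the disease. Of 10 tested among 16 listed, 4 were higher and 6 lower in GFP-positive than in control cells, 8 higher and 2 lower in GFP-negative than in control cells, and 5 each way between GFP-positive and GFP-negative cells, with medians of -0.03, 0.06 and -0.00, and none passed the test. Without control 3, 2 of the 10 were higher in GFP-negative and 2 in GFP-positive than in control cells. Between GFP-positive and GFP-negative cells, 2 of 10 were higher without GFP-negative 1 and also without GFP-positive 3, and the count in GFP-positive against control cells was 7 without GFP-positive 1 or control 2. Rps19, the gene most often mutated in the disease, had 10.97, 10.51 and 11.23 in GFP-positive, 10.88, 11.10 and 10.72 in GFP-negative, and 11.03, 11.07 and 10.10 in control cells. Control 3 was again the lowest array. The Rps19 difference from control cells was 0.17 in both dnMPL fractions, and it became -0.15 in both without control 3. Rps10, at the mRNA entry, had 11.25, 11.30 and 11.81 in GFP-positive, 11.67, 11.65 and 11.86 in GFP-negative, and 11.42, 11.82 and 11.49 in control cells. Its GFP-positive minus GFP-negative difference was -0.28 (interval -0.88 to 0.33), with 2 of 3 GFP-positive arrays below every GFP-negative array. The dimmer Rps10 probe sets above the filter gave -0.33 to 0.06 for the same difference. Rpl27 and Rps24 differed from control cells by -0.01 and -0.09 in GFP-positive and by 0.04 and -0.08 in GFP-negative cells.

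Paralogues were read beside their parents. Rps27l, a p53-responsive relative of Rps27, had 8.49, 8.09 and 10.12 in GFP-positive, 9.88, 9.20 and 8.50 in GFP-negative, and 9.24, 9.34 and 8.65 in control cells. The range of GFP-positive cells enclosed that of the other groups, and the difference was -0.18 (interval -1.41 to 1.05) against control and -0.29 against GFP-negative cells. The 3 Rps27l probe sets gave -0.13 to -0.22 against control and -0.29 to -0.55 against GFP-negative cells. Rps27 had 3.79, 5.31 and 4.81 in GFP-positive, 4.14, 4.34 and 4.27 in GFP-negative, and 4.29, 4.37 and 3.93 in control cells. Its difference from control was 0.44 (interval -0.41 to 1.29) in GFP-positive cells and 0.10 without GFP-positive 2. Rps4l, a paralogue of Rps4x, had 3.68, 3.87 and 3.87 in GFP-positive, 3.87, 5.56 and 3.36 in GFP-negative, and 6.03, 3.24 and 3.73 in control cells. 2 arrays, control 1 and GFP-negative 2, stood above the rest, which lay at or below the filter. Rps4x itself stayed within 12.96 to 13.27 on all 9 arrays.

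Of the 22 members with several probe sets above the filter, all probe sets of a gene had the same sign of difference in 13 members for GFP-positive minus control, 14 for GFP-negative minus control and 8 for GFP-positive minus GFP-negative cells. The differences from the probe sets of 1 gene spanned a median of 0.22, 0.27 and 0.28 in these comparisons, which is wider than the median difference of the members. The widest span was 1.23, in Rps20 between GFP-positive and GFP-negative cells.

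Genes outside the naming pattern were read for comparison. Of 7 ribosomal proteins and paralogues listed by other symbols, 4 were tested and none passed the test. Rps3a1, of the small subunit, differed from control cells by -0.11 in both dnMPL fractions, and Fau, whose product is cut to a small-subunit protein, by -0.04 in GFP-positive and -0.01 in GFP-negative cells. Rpl22l1, a paralogue of Rpl22, differed by 0.08 in GFP-positive and -0.04 in GFP-negative cells. Rpl7l1, a paralogue of Rpl7, had 7.47, 7.48 and 7.82 in GFP-positive, 8.27, 8.23 and 7.96 in GFP-negative, and 7.15, 8.07 and 4.70 in control cells. Control 3 was far below the other arrays, and GFP-positive lay below GFP-negative cells without overlap. Its difference from control cells was 0.95 (interval -0.61 to 2.52, adjusted p = 0.905) in GFP-positive and 1.51 (interval -0.05 to 3.08, adjusted p = 0.876) in GFP-negative cells, and these became -0.02 and 0.54 without control 3. That of GFP-positive minus GFP-negative cells was -0.56 (adjusted p = 0.9998 in limma). Other TOP mRNA genes, which encode elongation and initiation factors and related proteins, had median differences of -0.03, 0.05 and -0.07 in the 3 comparisons over 17 of 18 listed genes, and none passed the test. On the arrays, 5, 6 and 15 of these 17 lay above their own mean in GFP-positive, 6, 11 and 13 in GFP-negative, and 13, 14 and 4 in control cells, on the deposited scale. Of 14 mTOR pathway and TOP regulators, 13 were tested and none passed the test. By their means 7 of 13 were higher in GFP-positive than in control cells and 7 in GFP-negative than in control cells, with median differences of 0.07 and 0.03. Eif4ebp1, a repressor of cap-dependent initiation, differed by 0.70 (interval -0.55 to 1.95) in GFP-positive and 0.64 (interval -0.61 to 1.90) in GFP-negative cells. Larp4, an RNA-binding protein, differed by 0.42 (interval -0.67 to 1.515) and 0.64 (interval -0.45 to 1.74) in the same order. Control 3 was the lowest array of both genes, at 5.63 for Eif4ebp1 and 7.46 for Larp4. Larp1 differed by -0.19 in GFP-positive and 0.03 in GFP-negative cells. Mtor, the kinase itself, differed by -1.12 in GFP-positive (7.84, 5.89 and 7.49) and -0.99 in GFP-negative cells (6.89, 7.49 and 7.23) from control cells (9.12, 7.69 and 7.75), with adjusted p of 0.789 and 0.906 in limma.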

How the data were processed

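RNA of LSK cells was reverse transcribed, amplified and labelled with biotin, per the labels' protocols, and hybridised to 1 Affymetrix array per sample. The deposited values are log2 intensities that the authors obtained with RMA, per the submitters' processing notes, which give no version. RMA normalizes all arrays together, so a difference is relative to the array's other genes. The genome build behind the array annotation is not given in the sources used here.

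Of 45101 probe sets, 34945 named 1 gene. The brightest probe set by mean stood for each of 18193 genes, and 12400 genes with a mean above the 40th percentile (4.03) were tested. Group means were fitted over 9 arrays with lmFit and eBayes in limma 3.58.1 (R 4.3.3), with Benjamini-Hochberg adjustment over all genes and a threshold of 0.05. The eBayes step draws each gene's variance toward that of all genes, which widened the intervals of members with a small spread. Rps29, with an SD within groups of 0.050, had an SE of 0.226 for GFP-positive minus control cells. The smallest p of an exact permutation test with 3 arrays a side is 0.1. The number of arrays limits the precision.

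The members and gene lists were chosen with earlier results of these data known. Genes were named by a rule: per comparison the 8 members with the smallest p, any member past the threshold or apart from control in both comparisons, the 5 highest and 5 lowest by mean level, the 5 with the largest SD within groups, and list members. The fit was run on simulated data with noise drawn independently for each gene and array. That simulation held none of the array-wide shifts described above, so it cannot check the fit under them. Alternatives changed the filter, probe set, scaling, variance model, weights and arrays. Summaries used Python 3.11.15, with plots from matplotlib 3.10.9.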

Additional observations from a re-analysis of the deposited data

How the results depend on the processing

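Over 22 other settings, no ribosomal protein gene and no gene overall passed the adjusted threshold in any of the 3 comparisons, and the smallest adjusted p of a member was 0.573. Dropping the adjustment gave 805, 691 and 316 genes with p under 0.05 in GFP-positive minus control, GFP-negative minus control and GFP-positive minus GFP-negative cells, and 0 members in each. Leaving out 1 array at a time gave 6 to 21, 8 to 28 and 7 to 23 members higher in these comparisons, with median differences of -0.19 to -0.01, -0.09 to 0.05 and -0.15 to 0.01. In GFP-positive minus control cells, 1 member had an unadjusted limma p under 0.05 without control 1 (733 genes) and 1 without GFP-positive 1 (684 genes). In GFP-positive minus GFP-negative cells there was 1 without GFP-positive 1 (320 genes) and 2 without GFP-positive 3 (844 genes). Array weights gave 6 members higher in GFP-positive than in control cells. Without both control 3 and GFP-positive 2, 8 members were higher in GFP-negative than in control cells and 23 in GFP-positive than in GFP-negative cells. With the 107 probe sets of several genes, added after the data were seen, 47, 72 and 51 of 149 features were higher, because more features were counted. Fitting the replicate number as a block gave 0 genes called, and 811, 624 and 308 genes with p under 0.05, with 1 member among the first of these. The numbers were not taken to pair the samples, because the labels do not say that a number is shared between groups. Same-numbered arrays deviated from their group means with correlations of -0.29 to 0.10, which does not show whether they shared mice. Centring or further quantile normalization shifted the median difference of all genes by -0.02 to 0.03. The cause of the moves with single arrays was not tested.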
